A study of Homo sapiens with 3 samples.

Results

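Broad CHD8 promoter peaks are the widest CHD8-bound regions at the starts of protein-coding genes in human neural stem cells. A peak was counted as broad if it lay on chromosomes 1 to 22 or X, was at least 1500 bp wide and came within 1 kb of the canonical start of a protein-coding gene, upstream or downstream. The canonical transcript and its start were those of GENCODE release 44 on GRCh38. This gave 312 regions among 12578 CHD8 promoter peaks and 23393 CHD8 peaks in all. Width was therefore used to choose the regions, and their CHD8 width, fold and significance are given only as a description. The TRRAP peaks and the DNA sequence played no part in the choice.

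The study measured chromatin occupancy by ChIP-seq in wild-type (WT) neural stem cells grown with EGF and FGF. The cells had been made from the established human embryonic stem cell line H9. Chromatin was crosslinked with 2 mM disuccinimidyl glutarate and 1% formaldehyde, which also captures proteins that contact DNA through partners, and was precipitated with an antibody against CHD8 (Bethyl) or TRRAP (Invitrogen). A control IgG library (Diagenode) is not analysed here. Each antibody had 1 library of 1 cell line, so there is no replicate check, no p-value was computed, and the intervals below are 95% intervals that cover counting error only.

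CHD8 is an ATP-dependent chromatin remodeler that binds mainly at active promoters, and loss-of-function variants in its gene are among the best established causes of autism. TRRAP is a very large scaffold protein without catalytic activity that brings transcription factors such as MYC and E2F to the histone acetyltransferase complexes SAGA and TIP60. A peak caller reports a stretch of enriched signal as 1 peak as long as the signal does not drop out, so a wide peak can hold several local maxima, of which the summit is the highest.

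The DNA just upstream of 5 broad-peak genes is shown first. The genes are examples of regions described below and not a typical sample: a CHD8 peak of very high fold (HCFC1), a duplicated histone gene pair (H3C14), a region without TRRAP (PABPN1) and signal-induced genes (EGR1 and DUSP1). These 5 were picked from the eligible named genes after their values were seen. Each sequence is the 150 bp that end at the base before the canonical start, outside annotated exons, read 5′ to 3′ on the gene's strand of GRCh38. Capitals mark exact matches to words that promoter-binding factors recognise, on either strand: TGACGTCA and its shorter form TGACGT, the cyclic AMP response element (CRE); CACGTG, the E-box of MYC, MAX and USF factors; CCAAT, the NFY word; and GGGGCGGGG, the SP word.
HCFC1, chrX:153971819-153971968, minus strand: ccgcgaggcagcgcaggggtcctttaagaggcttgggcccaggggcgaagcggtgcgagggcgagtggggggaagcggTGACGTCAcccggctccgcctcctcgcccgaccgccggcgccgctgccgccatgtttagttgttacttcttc
H3C14, chr1:149841209-149841358, minus strand: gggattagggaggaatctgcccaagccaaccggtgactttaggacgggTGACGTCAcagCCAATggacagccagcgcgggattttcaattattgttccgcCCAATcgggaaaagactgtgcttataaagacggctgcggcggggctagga
PABPN1, chr14:23321307-23321456, plus strand: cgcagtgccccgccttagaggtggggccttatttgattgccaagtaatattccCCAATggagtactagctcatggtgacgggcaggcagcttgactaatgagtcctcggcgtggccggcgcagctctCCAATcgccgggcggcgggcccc
EGR1, chr5:138465329-138465478, plus strand: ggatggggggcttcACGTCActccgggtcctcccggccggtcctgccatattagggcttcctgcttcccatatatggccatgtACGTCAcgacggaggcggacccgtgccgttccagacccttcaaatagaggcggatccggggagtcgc
DUSP1, chr5:172771196-172771345, minus strand: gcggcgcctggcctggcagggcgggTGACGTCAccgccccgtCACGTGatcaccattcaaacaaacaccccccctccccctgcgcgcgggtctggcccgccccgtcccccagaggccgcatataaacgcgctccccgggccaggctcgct

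HCFC1, H3C14 and DUSP1 each held the whole CRE word in this stretch, and EGR1 held its shorter form at 2 places. In DUSP1, an E-box followed the CRE within a few bases. The shown genes are not typical in the CRE. In the longer promoter window described below, the whole word was in 4.81% of broad-peak promoters and 3.79% of those with narrower peaks only. For the shorter form these shares were 12.8% and 12.3%. All 5 stretches lay inside the broad CHD8 peak of the gene. A TRRAP peak covered the stretch at HCFC1 (chrX:153971634-153972251, fold 19.6) and at DUSP1 (chr5:172770722-172771547, fold 12.9). At EGR1 and H3C14 the stretch fell between neighbouring TRRAP peaks, and PABPN1 had none.

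By construction the regions were long. Their median width was 1718 bp (25th and 75th percentiles 1582 and 1890 bp), and widths ran from 1501 to 5131 bp, against a median of 516 bp for the 12266 narrower CHD8 promoter peaks. The fold, the authors' ratio of signal at the summit over the caller's background, had a median of 19.9 in broad and 10.2 in narrower peaks. The median −log10 q, their significance, was 45.8 and 16.1. Among the 312 regions width and fold were only loosely related (Spearman's rho 0.15, 312 peaks of 1 library), while over all promoter peaks rho was 0.77. Both values come from the same signal. The width threshold cut through a continuous range. The last regions inside it were at IREB2 (1504 bp), UBXN7 (1502 bp) and KIF26B (1501 bp), and the first outside were at HIPK3, 1 bp short of the threshold, TNRC18 (1498 bp) and ZNF865 (1497 bp). In this list, 69 of the 312 regions (22.1%) had another CHD8 peak within 500 bp, so some were parts of longer interrupted stretches.

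In all, 449 CHD8 peaks reached 1500 bp. Of the 137 that did not qualify, 27 lay on other sequences and 110 lay away from canonical coding starts, 41 of them within 1 kb of another annotated start. The 312 regions were spread over the genome, with 55 on chromosome 1, 24 on chromosome 6 and 5 on the X chromosome. These were 4.27%, 3.44% and 1.70% of the CHD8 promoter peaks on each. Chromosome 1 had the highest share and chromosome 19 the lowest (1.17%, 11 regions). Reads from duplicated sequence cannot be placed with certainty. For 7 regions (2.24%, against 1.84% of narrower peaks) the sequence at the summit occurs more than once in the genome. Among those 7 were the histone genes H2AC19 and H3C14, which lie in a duplicated cluster on chromosome 1, and TYW1B.

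A broad peak reached the promoter window of 377 protein-coding genes, which is 1.89% of 19970 genes. Any CHD8 promoter peak was present at 11208 genes (56.1%), so 3.36% (3.05 to 3.71) of the genes with CHD8 had a broad peak. A single coding window was overlapped by 249 regions, 2 windows by 61 and 3 or more by 2. Each region was named by the coding start nearest to its summit, which gave 312 different lead genes. A separate narrower peak was present at the same lead gene in 34 cases.

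The widest region, at BRD2, was far longer than the rest. BRD2 encodes a BET bromodomain protein that reads acetylated histones. Its peak, at chr6:32968207-32973337, was 5131 bp wide with a fold of 37.6. It began 387 bp upstream of the start and ran 4744 bp downstream, so that 57.5% of it lay in introns, 35% in exons and 7.54% outside the canonical transcript. The summit was 2257 bp inside the gene, and 18 annotated transcript starts of BRD2 lay within the peak. It held 7 TRRAP peaks, the most of any region, with folds from 6.26 to 10.6 and summits spread from 388 to 3507 bp downstream of the start.

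The next 9 regions had widths between 2557 and 2934 bp. TMEM69 and GPBP1L1 shared a peak of 2934 bp at chr1:45685581-45688514 (fold 31.8) that overlapped no TRRAP peak. PFN1, which encodes the actin-binding protein profilin, shared 2931 bp with ENO3, the muscle form of enolase, at chr17:4947539-4950469. Its 4 TRRAP peaks had folds from 7.21 to 18.7, and the highest lay 1303 bp upstream of the PFN1 start. HAPSTR1 (2820 bp) had 2 TRRAP peaks upstream of the start, while the CHD8 summit was 1012 bp downstream of it. At the paired histone genes H2AC19 and H3C15 (2799 bp, chr1:149850264-149853062) there were 4 TRRAP peaks with folds from 6.26 to 11.0.

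POU2F1, the octamer-binding factor OCT1, had 2776 bp of CHD8 and 2 weak TRRAP peaks (folds 8.65 and 6.73), both downstream of the start. The divergent genes HNRNPA2B1, an RNA-binding protein, and CBX3, a heterochromatin protein, shared 2731 bp with 2 TRRAP peaks inside and another, of fold 20.6, crossing the edge. HCFC1, a host cell factor that links transcription factors to chromatin-modifying enzymes, shared 2649 bp with TMEM187 (chrX:153970420-153973068, fold 64.1) and had a single TRRAP peak. SP3, a zinc finger factor that binds GC-rich promoters, had 2572 bp and 3 TRRAP peaks. PTMA, which encodes prothymosin alpha, had 2557 bp at chr2:231706370-231708926, with 5 TRRAP peaks inside. The strongest of these (fold 15.3) had its summit 284 bp upstream of the start, beside a CHD8 summit 292 bp upstream.

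**Figure D1:**
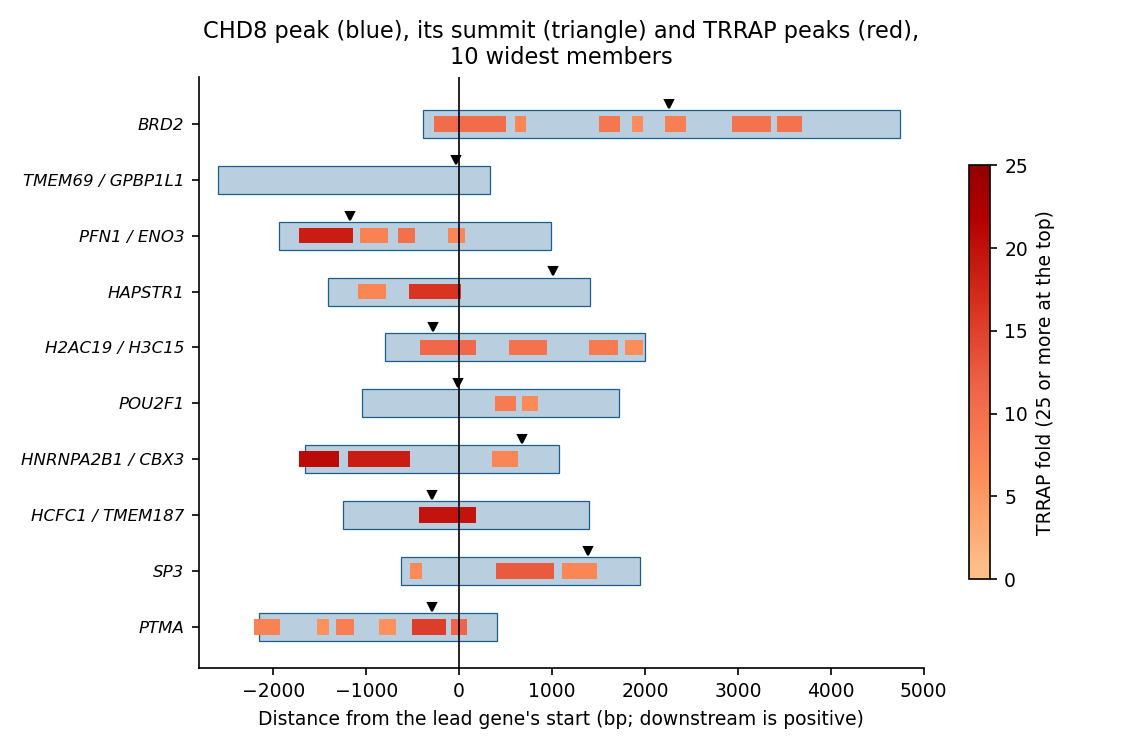
Maps of the 10 widest broad CHD8 promoter peaks, with distance from the lead gene's start in bp on the horizontal axis and 1 gene or gene pair per row. Blue bars are CHD8 peaks, triangles their summits and red bars the overlapping TRRAP peaks, darker for a higher fold. BRD2 extends 4744 bp into the gene with 7 TRRAP peaks, and TMEM69 with GPBP1L1 has none.

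TRRAP was present in nearly all of these regions. At least 1 TRRAP peak lay wholly inside 289 of the 312 (92.6%, 89.2 to 95%). The share was 80.3% (78.1 to 82.2) in promoter peaks of 1000 to under 1500 bp and 38.0% in all CHD8 promoter peaks. Any overlap was seen in 297 (95.2%, 92.2 to 97.1), against 84.7% (82.7 to 86.5) and 51.2%. These counts depend on width, since a wider peak has more room for a TRRAP peak. In total 513 of the 14735 TRRAP peaks lay wholly inside and 544 overlapped. The number inside was 0 in 23 regions, 1 in 126, 2 in 114, 3 in 41, 4 in 6, 5 in 1 and 7 in 1, with a median of 2 and a mean of 1.64. At least 2 were present in 52.2% (46.7 to 57.7), against 25.5% (23.3 to 27.8) of the 1438 promoter peaks of 1000 to under 1500 bp and 4.8% (4.44 to 5.19) of all narrower ones.

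**Figure D2:**
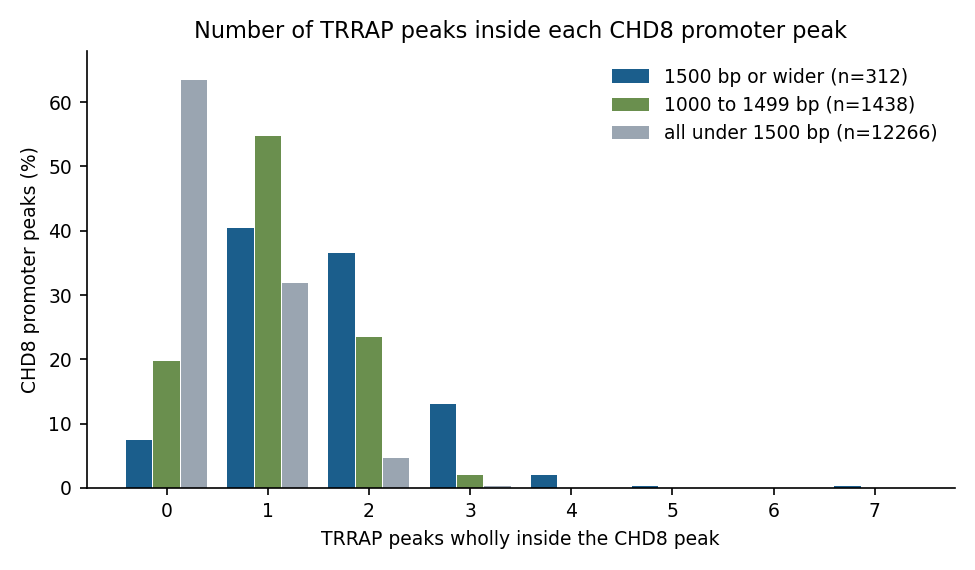
Number of TRRAP peaks wholly inside a CHD8 promoter peak (horizontal axis) and percentage of peaks with that number (vertical axis, from 0), for 312 broad peaks, 1438 peaks of 1000 to under 1500 bp and all 12266 peaks under 1500 bp. Of the broad peaks, 40.4% hold 1, 36.5% hold 2 and 13.1% hold 3, while 63.4% of all narrower peaks hold none.

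The number of TRRAP summits was also set against the length of CHD8 peak. Broad regions held 0.968 TRRAP summits per kb of CHD8 peak, narrower promoter peaks 0.946 and those of 1000 to under 1500 bp 0.998. By width, the density was 0.656 per kb below 250 bp, 0.917 at 250 to under 500 bp and between 0.937 and 1.03 in each wider group, broad ones included. TRRAP peaks covered a median of 40.4% of a broad region (25th to 75th percentile 22.7 to 54.0%).

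TRRAP summits were also counted in a window of fixed size around the start, whatever the width of the CHD8 peak. A TRRAP summit within 1 kb of the lead start was found for 289 of 312 broad regions (92.6%), 62.2% of all promoter peaks and 61.5% of the narrower ones. The difference between broad and narrower was 31.2 percentage points (27.6 to 33.7). Against peaks of 1000 to under 1500 bp, of which 84.6% had a TRRAP summit there, it was 8.00 points (4.12 to 11.1). At least 2 TRRAP summits within 1 kb were found in 50.6% of broad regions, 32.1% of the peaks of 1000 to under 1500 bp and 15% of all narrower ones. The share rose with CHD8 width from 52.1% (50.1 to 54.1) below 250 bp to 97.3% (90.5 to 99.2) at 1750 to under 2000 bp. Above 2000 bp it was 89.1% (78.2 to 94.9), and the intervals of these last groups overlapped.

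**Figure D3:**
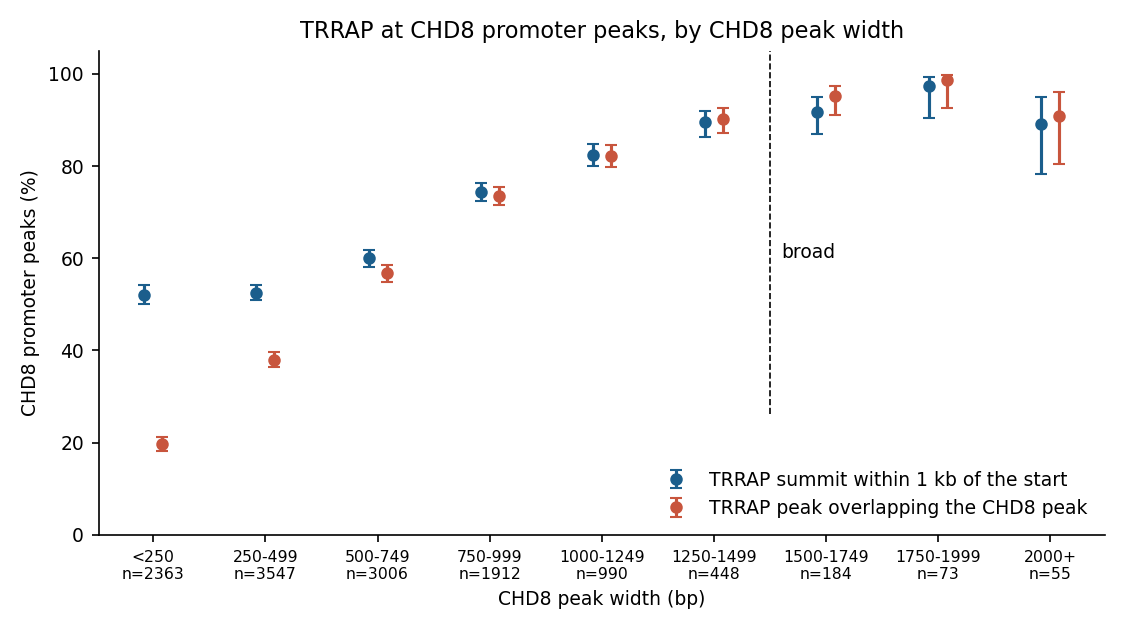
Percentage of CHD8 promoter peaks with a TRRAP summit within 1 kb of the lead start (blue) and with an overlapping TRRAP peak (red), by CHD8 width in bp, with 95% Wilson intervals and the number of peaks under each group. Both shares rise up to the group of 1750 to under 2000 bp, where they are 97.3% and 98.6%, and all 3 groups to the right of the dashed line are broad peaks.

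Broad peaks were also more significant, and the comparison was repeated within groups of promoter peaks cut at the quartiles of CHD8 −log10 q. Ties made the 4 groups unequal in size. Within the highest group, which held 241 of the 312 broad regions, −log10 q ran from 29.4 to 355 in broad and to 328 in narrower peaks, so significance was not matched there. In that group 92.1% (88.0 to 94.9) of broad and 73.0% (71.3 to 74.6) of narrower peaks had a TRRAP summit within 1 kb. Peaks of 1000 to under 1500 bp had 85.4% (83.0 to 87.6) there. In the next group the shares were 93.9% (85.4 to 97.6, 66 regions) of broad and 65.6% (63.9 to 67.3) of narrower peaks. Those of 1000 to under 1500 bp had 85.4% (81.6 to 88.5). Only 5 broad regions fell in the group below, all with TRRAP, and 0 in the lowest. Within the broad regions, a higher CHD8 fold did not go with more TRRAP peaks. Divided into 3 groups by fold, the regions held a mean of 1.69, 1.72 and 1.52 TRRAP peaks from the lowest to the highest group. Spearman's rho between fold and number was −0.090 in the 312 regions and 0.50 over all 12578 promoter peaks.

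The TRRAP peaks in broad regions were spread out along the promoter. Of 541 TRRAP summits inside them, 38.1% lay within 250 bp of the start. The share was 54.2% in peaks of 1000 to under 1500 bp and 66.9% of 6607 in all narrower peaks. Only summits inside the CHD8 peak were counted, so a wider peak leaves room for summits further from the start. The middle range (25th to 75th percentile) in broad regions was 448 bp upstream to 304 bp downstream, with a median 63 bp upstream. In peaks of 1000 to under 1500 bp it was 258 bp upstream to 137 bp downstream, and in all narrower peaks 166 bp upstream to 88 bp downstream. Neighbouring TRRAP summits in 1 region were typically separated by 567 bp (median of 224 gaps, middle range 408 to 766 bp). Of the 163 regions with at least 2 TRRAP peaks inside, 90 (55.2%) had summits on both sides of the start, 49 (30.1%) only upstream and 24 (14.7%) only downstream. A TRRAP peak covered the CHD8 summit in 75.6% (70.6 to 80.1) of broad regions, 63.7% (61.2 to 66.1) of peaks of 1000 to under 1500 bp and 37.4% (36.5 to 38.2) of all narrower ones. The highest TRRAP fold in a region had a median of 11.0, against 8.65 in narrower peaks with TRRAP and 9.60 in those of 1000 to under 1500 bp. This highest value can rise with the number of TRRAP peaks in a region. Taken over single TRRAP peaks with a summit inside, the median fold was 9.12 in broad regions. It was 8.65 in peaks of 1000 to under 1500 bp and 8.17 in all narrower ones.

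**Figure D4:**
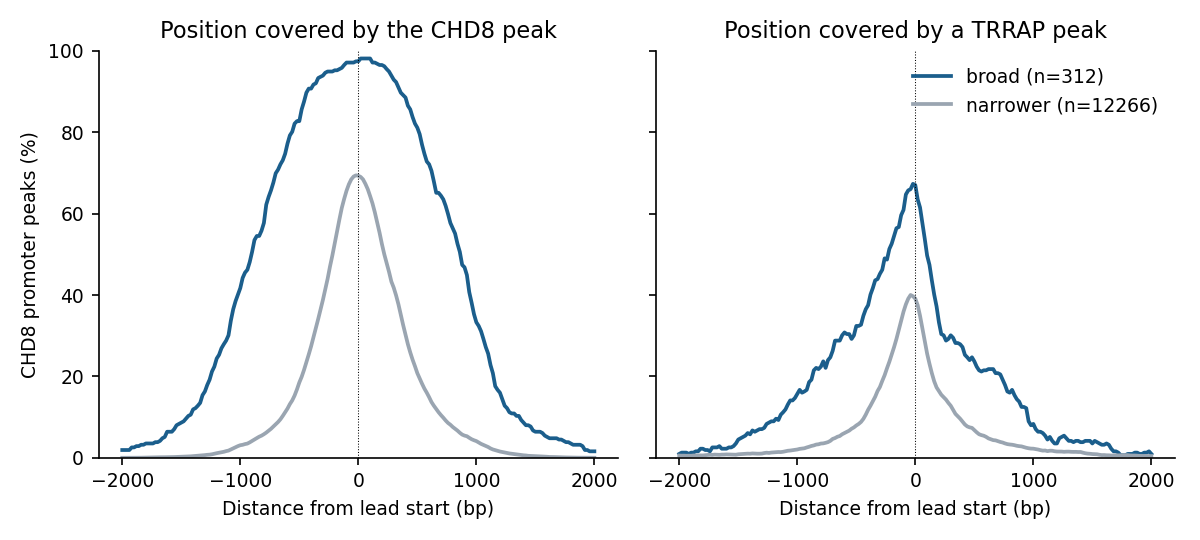
Percentage of CHD8 promoter peaks (vertical axis) whose CHD8 peak (left) or any TRRAP peak (right), overlapping the CHD8 peak or not, covers a position at the given distance in bp from the lead start, for broad (blue) and narrower (grey) peaks. CHD8 coverage of broad peaks forms a wide plateau across the start, whereas TRRAP coverage has a sharp maximum just upstream of it with shoulders on both sides.

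The strongest TRRAP peaks wholly inside broad regions were at KMT2E (fold 53.6), ASF1A (43.0), COX20 (42.6), CNOT8 (40.7) and CAND1 (37.8). KMT2E encodes a SET-domain chromatin protein, and its region of 2156 bp (chr7:105012325-105014480) held a TRRAP peak of 1286 bp with its summit 1397 bp upstream of the start. A second one (fold 15.8) sat 99 bp upstream, next to the CHD8 summit 101 bp upstream. The TRRAP peak at ASF1A, a histone chaperone, was 299 bp wide with a summit 121 bp upstream. At COX20, an assembly factor of cytochrome c oxidase, and CNOT8, a deadenylase of the CCR4-NOT complex, single TRRAP peaks of 1119 and 1251 bp filled most of the region. CAND1, an exchange factor for cullin ubiquitin ligases, had its strong TRRAP summit 14 bp upstream of the start and a weak one (fold 6.73) 743 bp downstream. These 5 were not the strongest in CHD8, and their CHD8 folds ran from 13.7 to 42.5.

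The highest CHD8 folds belonged to KMT5B (93.7), SNX5 with MGME1 (87.1), YWHAE (76.0), MORF4L1 (67.2) and HCFC1 (64.1). KMT5B, a histone H4 lysine methyltransferase, had its summit 584 bp upstream of the start and a single TRRAP peak of fold 26.3. SNX5, a sorting nexin, and YWHAE, the epsilon form of the 14-3-3 proteins, each had 1 TRRAP peak of fold 12.9. MORF4L1 encodes a chromodomain subunit of the TIP60 complex, to which TRRAP also belongs. Its 3 TRRAP peaks had folds of 6.73, 9.12 and 14.9, and the strongest lay 761 bp inside the gene, near the CHD8 summit at 661 bp.

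No TRRAP peak overlapped 15 of the regions. The 5 widest were at TMEM69 with GPBP1L1 (2934 bp), SERBP1 (2243 bp), AKT1S1 with TBC1D17 (2167 bp), TYW1B (2074 bp) and PABPN1 (2002 bp). SERBP1 encodes an mRNA-binding protein, AKT1S1 an inhibitor of mTOR complex 1, and PABPN1 the nuclear poly(A)-binding protein. Their CHD8 peaks were not weak, with folds of 41.1 at SERBP1, 44.7 at AKT1S1 and 42.0 at PABPN1. TYW1B, one of the regions with a multi-copy summit, had 15.1. Over the 15 regions the CHD8 fold had a median of 26.1 (13.7 to 54.8), against 19.9 (8.87 to 93.7) in the 297 with TRRAP, and the median widths were 1669 and 1719 bp. The highest of the 15 folds, 54.8, was at USF1, an E-box-binding factor. The nearest TRRAP peak was 475 bp away at BROX and between 6175 and 253947 bp away at the other 14. A further 8 regions had a TRRAP peak that crossed the edge without lying inside, among them KLF12, FBRS and MSH6. At FBRS the crossing peak had a fold of 44.5.

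The broad peaks extended to both sides of the start. The lead start was covered by 304 of 312 regions (97.4%, 95 to 98.7). It was covered by 94.9% (93.6 to 95.9) of peaks of 1000 to under 1500 bp and 69.3% of all narrower peaks. A wide peak near a start is likely to cover it because of its length. The regions reached a median of 905 bp upstream and 864 bp downstream, and 64.7% (59.3 to 69.8) reached at least 500 bp on both sides. By the canonical lead transcript, a median of 51.1% of a region lay outside the gene, 14.2% in exons and 28.9% in introns. Their CHD8 summits were not closer to the start: 51.6% (46.1 to 57.1) lay within 250 bp of it, against 67% (66.1 to 67.8) in narrower peaks and 70% (67.5 to 72.3) in those of 1000 to under 1500 bp. Summits over 500 bp away made up 23.4% of broad regions, 12.1% of peaks of 1000 to under 1500 bp and 16.5% of all narrower ones. SMAD7 was at one extreme, with its summit 1879 bp upstream.

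More annotated starts lay inside the broad regions. At least 2 coding starts were inside 18.6% (14.7 to 23.3) of them and 7.45% (7.0 to 7.93) of narrower peaks, a difference of 11.1 points. A window of 1 kb around the lead start, which does not depend on peak width, gave 17.6% and 11.7%, a difference of 5.91 points (2.04 to 10.6). Peaks of 1000 to under 1500 bp had 17.9% in that window, and the difference from them was −0.244 points (−4.59 to 4.74). At least 1 lncRNA start lay inside 35.9% (30.8 to 41.4) of broad regions, 25.2% (23.1 to 27.6) of those of 1000 to under 1500 bp and 12.3% (11.7 to 12.9) of narrower ones. That count depends on peak width. In the fixed window of 1 kb, at least 2 starts of any gene were found for 51.6% (46.1 to 57.1) of broad regions. The shares were 47.2% (44.6 to 49.8) for peaks of 1000 to under 1500 bp and 33.9% (33.0 to 34.7) for all narrower ones.

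CpG islands, the CpG-rich stretches that mark most housekeeping promoters, were long at these genes. An island was called wherever the GC content was at least 50% and the ratio of observed to expected CpG over 0.6 in at least 200 bp. All 312 regions touched an island, as did 97.2% of narrower peaks. The longest island under the peak had a median of 1875 bp in broad regions (quartiles 1589 and 2246 bp), 1508 bp in peaks of 1000 to under 1500 bp and 1307 bp in narrower peaks. PTMA had the longest, 5200 bp, and ZMYND8 the shortest, 435 bp. Islands covered a median of 98.8% of a broad region, yet only 42.0% (36.6 to 47.5) of the regions lay wholly within islands. The share was 57.1% (54.5 to 59.6) in peaks of 1000 to under 1500 bp and 77.3% (76.5 to 78.0) in all narrower peaks. A longer peak needs a longer island to lie wholly within it. Among the 312 regions, Spearman's rho between width and island length was 0.25.

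The CpG ratio around the start (500 bp upstream and downstream) had a median of 0.849 (25th to 75th percentile 0.782 to 0.921), against 0.807 (0.721 to 0.884) for narrower and 0.837 for peaks of 1000 to under 1500 bp. Measured over the peak's own sequence, the medians were close, with 0.816 in broad and 0.822 in narrower peaks. The interval of that difference (−0.0181 to 0.00802) reached both signs. TMEM69 was among the lowest at the start, with a ratio of 0.375. The longest island there, 1581 bp, lay in the upstream part of the peak.

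Gene lists were used to describe which kinds of gene had a broad peak. They were written from general knowledge, but with earlier results of these data known. Each count is set against the genes of the list with any CHD8 promoter peak and against 3.36% over all genes. No list was tested, and some genes are on more than 1 list. Of the 377 genes, 86 were on at least 1 list and 291 on none. A TRRAP peak lay inside the broad peak of 348 of the 377 genes. The counts with TRRAP inside given for single lists below were near that share and are not a trait of those lists.

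RNA-binding and splicing factors had the highest share. Of 119 with CHD8, 24 had a broad peak (20.2%, 13.9 to 28.3), and the widest CHD8 peak of a gene on this list had a median width of 1091 bp, against 643 bp over all genes. Of the 24, 23 had a TRRAP peak inside, and PABPN1 was the exception. The group included 8 genes named for heterogeneous nuclear ribonucleoproteins, which package pre-mRNA: HNRNPA2B1, HNRNPDL, HNRNPA1, HNRNPUL2, HNRNPK, HNRNPD, HNRNPH3 and HNRNPH1. It also held DEAD-box RNA helicases, of which DDX5 (2391 bp, shared with CEP95) and DDX3X (2289 bp) were the widest. IGF2BP1, IGF2BP3 and LIN28A, RNA-binding proteins of embryonic and stem cells, had 2183, 1516 and 1609 bp and held 3, 2 and 3 TRRAP peaks. At IGF2BP1 (chr17:48995348-48997530) the CHD8 summit lay 1261 bp upstream of the start, and TRRAP peaks covered 69.4% of the region. PTBP1, which represses neuronal splicing patterns (fold 57.5), and the spliceosome protein SRRM2 (fold 61.9) had the highest CHD8 folds of the 24.

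Autism-associated genes followed, with 15 of 89 (16.9%, 10.5 to 26.0), all with TRRAP inside, and a median width of 807 bp. DDX3X, KMT2E, KMT5B and PHF21A, a reader subunit of a histone demethylase complex, had the widest peaks, from 2040 to 2289 bp. TRIP12, a ubiquitin ligase, had a CHD8 fold of 38.0 but a highest TRRAP fold of only 6.26. Many entries are themselves chromatin proteins: KMT2E, KDM5B, SETD5, NIPBL and ASH1L were also on the list of chromatin regulators.

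Chromatin regulators had 14 of 143 (9.79%, 5.92 to 15.8) with a median width of 863 bp, and TRRAP lay inside all 14. Besides BRD2 and KMT2E, the widest were KDM5B (1939 bp), a histone H3 lysine 4 demethylase, and STAG1 (1936 bp), a cohesin subunit. Their highest TRRAP folds were 22 and 22.5. CTCF, the insulator protein, had 1721 bp with a CHD8 fold of 48.6 and 2 TRRAP peaks. SRCAP, a remodeler that deposits the histone variant H2A.Z, had the highest CHD8 fold of the 14, 59.2. The acetyltransferase EP300 (1811 bp) held 1 TRRAP peak, and the remodeler CHD1 (1845 bp) held 2 of low fold (at most 7.69).

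Signal-induced and growth factor response genes had 6 of 57 (10.5%, 4.91 to 21.1): SPRED1, EGR1, ATF4, DUSP1, JUN and ATF3. Their list's median width, 613 bp, was below that of all genes. SPRED1, an inhibitor of RAS signalling, was the widest (2051 bp, fold 34.1). EGR1, an immediate early zinc finger factor, had 1986 bp at chr5:138463840-138465825 that reached 1639 bp upstream of the start. Its 2 TRRAP peaks (folds 11.5 and 11.0) flanked the upstream stretch printed above, with summits 526 bp upstream and 160 bp downstream. DUSP1, a phosphatase that ends MAP kinase signalling, had a single TRRAP peak of 826 bp across the start. JUN, a subunit of the AP-1 factor, had 1631 bp with 3 TRRAP peaks, the strongest of fold 34.0, and TRRAP covered 79.2% of the region. ATF3 also had 3, while ATF4, the effector of the integrated stress response, had 2.

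Among developmental regulators, the homeobox list had 3 of 32 (9.38%, 3.24 to 24.2), among them POU2F1 and MEIS2 (2427 bp). MEIS2, a patterning factor, reached 2172 bp upstream of its start and held 1 TRRAP peak. Neural stem cell and proneural factors had 2 of 52 (3.85%, 1.06 to 13.0), close to the share of all genes. These were RFX4, a factor of neural progenitors, and SOX11, a factor of neuronal precursors. RFX4 had a modest CHD8 fold (12.4) and a TRRAP fold of 27.8, and TRRAP covered 93.7% of its region. SOX11 had a CHD8 fold of 12.0 and held 3 TRRAP peaks. The WNT, Notch, TGF-beta and Hedgehog list had 6 of 72 (8.33%, 3.88 to 17.0). Of these, TGIF2, ACVR2B, BMPR2, BMPR1A and SMAD7 encode receptors or regulators of TGF-beta and BMP signalling, and FZD7 encodes a WNT receptor.

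The shares of the growth and housekeeping lists lay on both sides of the 3.36% over all genes. Cell cycle and replication genes had 3 of 95 (3.16%, 1.08 to 8.88): E2F3 (1910 bp, 3 TRRAP peaks), MCM7 (1849 bp) and ORC6 (1815 bp). The list of translation and ribosome biogenesis genes had 4 of 76 (5.26%, 2.07 to 12.8): EIF4A2, EIF4G2, EEF1A1 and POLR2A. The last encodes a subunit of RNA polymerase II and is not a translation or ribosome biogenesis gene, so this share holds for the list as written. Cytosolic ribosomal protein genes had 1 of 82 (1.22%, 0.216 to 6.59), RPL7, although the median width of the list, 826 bp, was above that of all genes. Mitochondrial ribosomal protein genes had 0 of 77 (upper limit 4.75%) with a median width of 698 bp. Zinc finger genes named ZNF had 10 of 426 (2.35%, 1.28 to 4.27), of which ZNF687 was the widest (2070 bp). Replication-dependent histone genes had 4 of 60 (6.67%, 2.62 to 15.9), all from the duplicated pair H2AC19 with H3C15 and H3C14 with H2AC18. These 4 genes had equal CHD8 folds (15.1) and equal highest TRRAP folds (11.0), and their reads cannot be assigned to 1 copy with certainty. Synaptic genes had 0 of 32 (upper limit 10.7%), with a median width of 405 bp. The HOX clusters and the olfactory receptor genes each had a single gene with CHD8, and neither was broad.

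**Figure D5:**
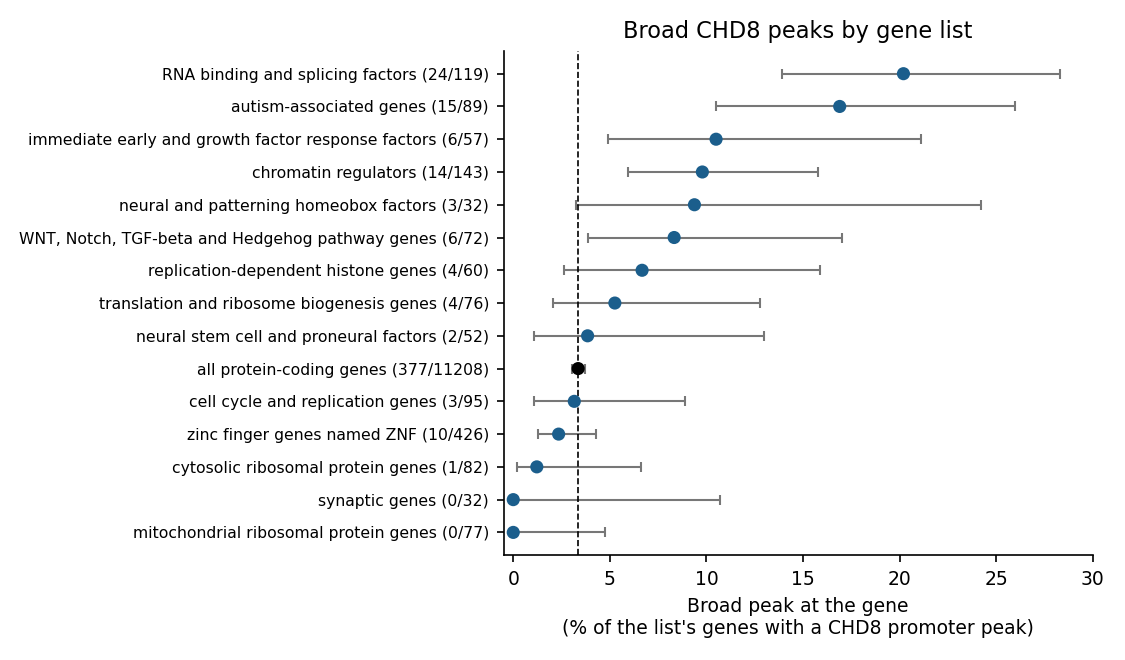
Percentage of genes with a broad CHD8 peak (horizontal axis) among the genes of each list that have a CHD8 promoter peak, with 95% Wilson intervals and both counts beside the name. The dashed line and the black point mark all protein-coding genes (3.36%). The highest shares are those of RNA-binding and splicing factors (20.2%), autism-associated genes (16.9%), signal-induced genes (10.5%) and chromatin regulators (9.79%). The intervals cover counting error only, and no list was tested. The lists share genes and were written with earlier results of these data known.

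Consensus words were counted without mismatch, on both strands, from 250 bp upstream to 50 bp downstream of the start, once per lead gene. The E2F words (TTTCCCGC, TTTCGCGC, TTTGCCGC or TTTGGCGC) were in 9.62% (6.82 to 13.4) of broad-peak promoters, in 5.73% (5.29 to 6.21) of 9792 lead promoters with narrower CHD8 peaks only, and in 4.37% of all 19970 coding promoters. The ETS word CCGGAAGT went the other way, with 5.13% (3.18 to 8.17), 9.81% (9.24 to 10.4) and 6.15%. The E-box was in 9.62% (6.82 to 13.4), 10.3% (9.74 to 10.9) and 8.75%. For the YY1 word AAGATGGCG the shares were 6.41% (4.19 to 9.69), 4.88% (4.47 to 5.33) and 2.84%. The SP word was in 34.0%, 32.5% and 24.5%, the NFY word in 36.5%, 37.4% and 36.0%, the CRE word in 4.81%, 3.79% and 2.69%, and the NRF1 word TGCGCATGC in 2.56%, 3.21% and 2.05%. For these 4 words the broad share differed from the narrower one by less than its counting interval. The shorter form of the CRE, which every CRE contains, was in 12.8%, 12.3% and 9.49%. The word ACTACAATT of ZNF143 was in 3 of the 312 promoters (0.962%), 0.664% and 0.451%.

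Within 100 bp of the CHD8 summit, the YY1 word was in 8.33% (5.75 to 11.9) of broad and 4.24% (3.90 to 4.61) of narrower peaks. The E-box was in 8.97% (6.28 to 12.7) and 6.19% (5.78 to 6.63), the E2F words in 5.13% (3.18 to 8.17) and 3.40% (3.09 to 3.74), and the ETS word in 4.17% (2.45 to 7.0) and 5.81% (5.41 to 6.24). The remaining words had similar shares in broad and narrower peaks. The NFY word was in 17.6% and 17.9%, the SP word in 16.0% and 17.0%, and the shorter CRE form in 5.77% and 5.95%. For the whole CRE the shares were 1.28% and 1.66%, for the NRF1 word 1.28% and 1.14%, and for the ZNF143 word 0% and 0.196%. A match is a description of the sequence and does not show that a factor was bound.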

How the data were processed

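The peak lists of the CHD8 and the TRRAP library were used as deposited. Per the submitters' processing notes, HISAT2, MACS2 2.1.1.20160309 and GRCh38 were used; the control and other settings are not given in the sources used here, and the number of reads behind each list is unknown. Each deposited list gives a peak's position, its summit offset, a fold (linear ratio over the caller's background), −log10 p and −log10 q values. The deposited score was 10 times the −log10 q, rounded down. Their names state a false discovery rate, 0.0001 for CHD8 and 0.001 for TRRAP. Folds and significances only describe or rank peaks within their own list, with ties in −log10 q broken by fold, width and position.

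Peaks were joined to GENCODE release 44 starts and to the GRCh38 sequence in Python 3.11.15 (pandas 2.3.3, numpy 2.4.6, pysam 0.24.0, scipy 1.17.1, numba 0.67.0, matplotlib 3.10.9) with samtools 1.23.1. Coordinates count from 1. A summit was multi-copy when words of 32 bases from its surrounding 101 bp occurred, at the median, more than 1 time in the reference. Shares carry Wilson intervals and differences between shares Newcombe intervals. Intervals of differences between medians come from the ranks of the values. The interval and overlap code was tested on simulated data. The named genes were the 10 widest regions, the 5 with most TRRAP peaks inside (ties by width), the 5 widest without TRRAP, the 5 with the highest TRRAP and the 5 with the highest CHD8 fold, the 3 regions on each side of the threshold and the 4 widest of each list. Other genes were named after their values were seen. The members, the gene lists and the rules were chosen with earlier results of these data known. Alternatives were other widths, windows, overlap rules and subsets of peaks.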

Additional observations from a re-analysis of the deposited data

How the results depend on the processing

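No paired analysis was possible because each antibody had 1 library. The number of broad regions was 1750 at a minimum width of 1000 bp, 55 at 2000 bp and 813 when CHD8 peaks closer than 500 bp were merged first. It was 309 to 321 with other windows, starts of all transcripts or CHD8 peaks above the median significance. The share with TRRAP wholly inside (92.6%) was 82.5% at 1000 bp, 89.1% at 2000 bp, 88.7% after merging, 78.5% with TRRAP peaks above the median significance only, and 95.2% when overlap by 1 bp or a summit inside sufficed. The median number of TRRAP peaks inside was 2, and 1 when TRRAP peaks closer than 500 bp were merged.

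The difference from narrower peaks in TRRAP within 1 kb (31.2 points) was positive in all 11 alternatives run. It was 17.7 points in a window of 250 bp and 8.00 against peaks of 1000 to under 1500 bp. In the second-lowest group of CHD8 significance (5 broad regions) it was 41.8, with an interval that reached both signs (−1.67 to 43.6). It was 19.1 in the highest group, 41.1 with TRRAP peaks above the median significance and 36.4 with CHD8 summits within 250 bp of the start. The difference in CpG ratio (0.0417) was 0.0824 over 1 kb on each side. It was 0.0122 (−0.00914 to 0.0305) against peaks of 1000 to under 1500 bp and −0.00610 (−0.0181 to 0.00802) over the peak's own sequence. These last 2 intervals reached both signs, so the direction was not settled there, and the cause was not tested. For island length the difference (568 bp) was 367 bp against peaks of 1000 to under 1500 bp. The difference in coding starts (11.1 points) was 36.5 with starts of all genes inside the peak, a count that depends on width. For coding starts it was 5.91 in a fixed window and 2.32 against peaks of 1000 to under 1500 bp. Single-copy summits, 1 peak per lead gene, 1 coding start within 1 kb, summits near the start, the fixed window for starts, and the 1000 to under 1500 bp comparison for sequence and starts were chosen after the data were seen.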

Other observations

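Several genes outside the lists above are standard reference genes of expression studies, and they were picked out after their values were seen. ACTB (2319 bp, CHD8 fold 14.2) held 1 TRRAP peak and GAPDH (1948 bp, fold 15.5) held 3, whereas HSPA8 (1898 bp, fold 29.2), a constitutive chaperone, held 1. H3-3A, which encodes the replication-independent histone H3.3, had a region of 2135 bp (fold 26.1) with 2 TRRAP peaks. Of transcription factors on no list, TFAP4, an E-box-binding factor, had 2538 bp with 3 TRRAP peaks. REST, the repressor of neuronal genes in non-neuronal cells, had a modest fold (11.5). Its region of 1551 bp lay wholly downstream of the canonical start, with 80.3% of it in introns, and held 2 TRRAP peaks.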
